A study of Mus musculus with 23 samples.

Results

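Of the 23 hippocampal RNA-seq libraries of the series, the 15 from mice of 10 months were used to ask which transcripts differ with an inhibitor of stearoyl-CoA desaturase (SCD) whatever the strain. All libraries of that age were members, chosen by their labels: 7 from mice infused with the inhibitor (SCDi) and 8 from mice infused with its vehicle. The strains were the 3xTg model of Alzheimer's disease, which carries a mutant knock-in allele and the human transgenes APPSwe and tauP301L, and its wild-type (WT) control, C57BL/6J x 129S1. Both lines came from separate commercial stocks and were bred in-house. The transgenes are driven by a regulatory element of Thy1.2, so they are made in neurons. Every mouse was female and had a pump that delivered fluid to the lateral ventricle for 28 days, with 0.8% DMSO in all groups and 80 µM SCDi in the treated ones. WT mice received vehicle (WT-D, n = 4) or SCDi (WT-S, n = 3), and so did 3xTg mice (3xTg-D, n = 4, and 3xTg-S, n = 4), each library being labelled with its own animal number. Both arms therefore shared surgery, pump and solvent. The difference SCDi minus vehicle was fitted for all genes at once with strain as a second term, so that each strain served as its own control.

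SCD enzymes place an unsaturated bond in long-chain saturated fatty acids and so make monounsaturated fatty acids such as oleate, which are built into membranes, triglycerides and cholesteryl esters. In the mouse brain Scd2 is the main isoform and Scd1 the one best known for its control by insulin, SREBP-1c and liver X receptors. A blocker acts on the protein, so RNA reports what the tissue's transcripts did under the drug and not how far the enzyme was inhibited.

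Gene counts ran from 12992547 to 17575615 per library, and replicates correlated across genes with r between 0.985 and 0.993. Hippocampal markers were present in all libraries, with Prox1 of the dentate gyrus at 85.6 to 149 CPM (a gene's counts relative to the TMM-scaled total of its library) and Slc17a7 of excitatory neurons at 833 to 1082 CPM. Choroid plexus tissue was present unevenly, since Ttr ran from 1.77 to 306 CPM. In whole tissue, fewer cells of a type and less RNA per cell cannot be told apart. No source gives the dissection order of the animals, so p-values measure the spread between these libraries.

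Across both strains the inhibitor went with small differences in many transcripts, none of which passed correction. Of 16262 genes tested, 0 (0%) had an adjusted p under 0.05 by the quasi-likelihood test of edgeR, and the smallest adjusted p was 0.241. At an unadjusted p under 0.01 there were 357 genes higher with SCDi (2.20% of those tested) and 293 lower (1.80%), against about 163 that a uniform spread of p-values would give in both directions. At an unadjusted p under 0.05 there were 1105 higher (6.79%) and 1104 lower (6.79%). The likelihood ratio test of DESeq2 was fitted to the same genes but left 10089 of them without an adjusted p. Its correction therefore covered fewer genes than that of edgeR. It called 55, of which 32 were higher and 23 lower. Limma voom with library weights called 0, with 2269 genes at an unadjusted p under 0.05. All 55 had an unadjusted p under 0.01 in edgeR. The median size of the log2 difference was 0.18 among the 650 genes under 0.01, a change of 13.4%, and 614 of them were under 0.5. In the same fit, 1062 genes (6.53%) passed correction between the strains, with a median size of 0.44. Values below are therefore given as differences with their errors, and no gene of the inhibitor comparison is called unless DESeq2 is named.

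The transcripts with the smallest p-values on the higher side included genes of mitochondria, translation and protein handling. Fxyd1, which encodes phospholemman, a regulator of the sodium pump (chromosome 7, 31051678 to 31057199 in GRCm38), came first. Fxyd1 stood at 17.0, 15.7, 14.1 and 15.2 CPM in WT-D, 20.8, 19.7 and 17.6 CPM in WT-S, 17.3, 17.0, 14.9 and 15.5 CPM in 3xTg-D, and 20.3, 22.4, 23.6 and 18.7 CPM in 3xTg-S. Every SCDi library was above every vehicle library, and the difference was 28.6% (95% interval 17.3 to 40.9%) (log2 fold change 0.36 ± 0.063, unadjusted p = 1.78e-05, adjusted p = 0.241 by edgeR). Nedd8, a ubiquitin-like modifier that activates cullin ligases, was at 53.2, 60.4, 53.3 and 55.2 CPM in WT-D, 64.2, 61.2 and 65.1 CPM in WT-S, 59.3, 53.5, 53.4 and 52.4 CPM in 3xTg-D, and 65.8, 70.6, 60.7 and 62.6 CPM in 3xTg-S. Its 15 libraries also split by treatment with no overlap, for a difference of 16.8% (95% interval 9.45 to 24.7%). Mrpl21 and Mrpl46, proteins of the mitochondrial ribosome, differed by 0.25 and 0.24 on the log2 scale, and Eif3k, a subunit of translation initiation factor eIF3, by 0.19. Sil1, an exchange factor for the chaperone BiP, differed by 0.24, and Stx8, an endosomal syntaxin, by 0.19. All 5 of these genes separated the arms with no overlap over the 15 libraries. The other leading genes were Myl6, a myosin light chain (0.23), Atpif1, the inhibitor of the mitochondrial ATPase (0.21), Ndufb11 of complex I (0.23) and Naa38, a subunit of the NatC acetyltransferase (0.25). DESeq2 called Myl6, Nedd8, Atpif1, Eif3k and Ndufb11 of this group, with an adjusted p of 0.0117 for Myl6 and Nedd8, so that these 5 rose by that test. All 5 were highest in 3xTg-S replicate 2, and DESeq2 was not refitted without that library. In edgeR without it, their log2 differences were 0.21, 0.20, 0.18, 0.16 and 0.20.

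The transcripts with the smallest p-values on the lower side included genes of inhibitory neurons and of transcription. Gad2, the GABA-synthesising enzyme of inhibitory terminals (chromosome 2, 22622205 to 22693874), was at 209, 204, 201 and 185 CPM in WT-D, 190.3, 184 and 178 CPM in WT-S, 196, 207, 213 and 206 CPM in 3xTg-D, and 177, 175, 176 and 191 CPM in 3xTg-S. In 3xTg all SCDi libraries were below all vehicle libraries, and in WT the groups overlapped. The fitted difference was -10.5% (95% interval -15 to -5.75%) (log2 fold change -0.16 ± 0.036, unadjusted p = 0.000263). Scn1a, the sodium channel of fast-spiking interneurons, was at 157, 144, 165 and 136 CPM in WT-D, 131, 127 and 125 CPM in WT-S, 149.7, 154, 202 and 136 CPM in 3xTg-D, and 136, 115, 132 and 137 CPM in 3xTg-S, which is a difference of -17.2% (95% interval -25.1 to -8.51%). Its highest value, in 3xTg-D replicate 3, stood well above the other vehicle libraries of that strain. Prkaa2, a catalytic subunit of the energy sensor AMPK, was at 53.8, 44.0, 49.9 and 42.4 CPM in WT-D, 40.4, 41.3 and 40.2 CPM in WT-S, 42.6, 45.4, 46.5 and 40.4 CPM in 3xTg-D, and 35.2, 38.0, 36.9 and 38.1 CPM in 3xTg-S. Prkaa2 separated by treatment within each strain and differed by -0.23. Nin, the centrosomal protein ninein, was the one leading gene on this side whose 15 libraries did not overlap, at 56.1 to 67.3 CPM with SCDi and 68.0 to 74.6 CPM with vehicle. The neural transcription factor Pou3f2 (-0.34), the chromatin factor Arid5b (-0.29), the kinase Stk32a (-0.31), the oxysterol-binding protein Osbpl6 (-0.18) and the ganglioside synthase St8sia1 (-0.20) had p-values from 0.000198 to 0.000895. Ccdc66 (-0.27), Ccdc141 (-0.21) and the deubiquitinase Mindy2 (-0.20) completed the group. DESeq2 called Gad2, Prkaa2, Mindy2, Arid5b, Osbpl6, Nin, Scn1a and St8sia1, which fell by that test.

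**Figure D1:**
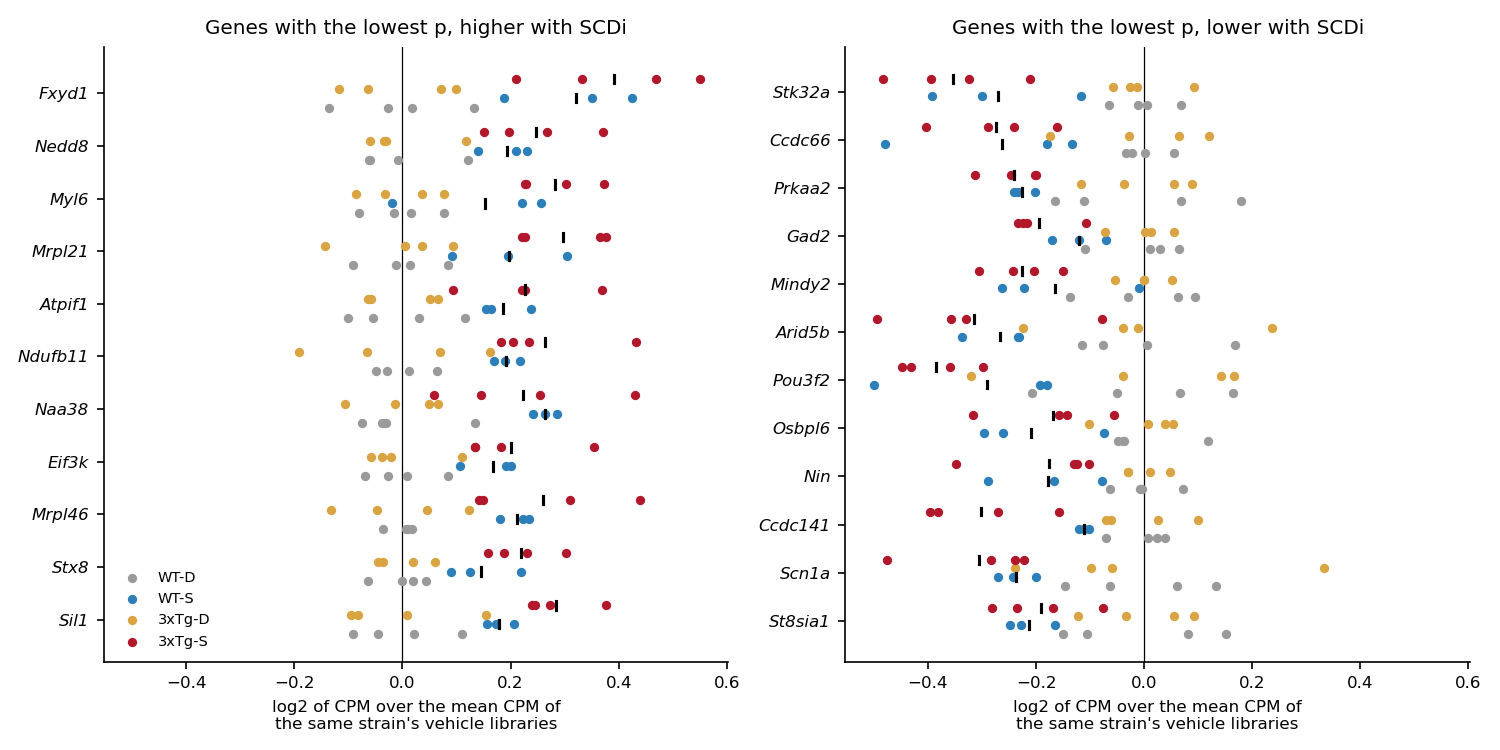
Each point is a library of WT-D, WT-S, 3xTg-D or 3xTg-S, placed by the log2 of its CPM over the mean of its own strain's vehicle libraries, for the 11 leading higher genes with a known protein and the 12 leading lower genes; black bars are the means of the SCDi groups. The SCDi means lie within 0.5 log2 units of the vehicle mean, and most but not all SCDi libraries of a gene stand on one side of the vehicle libraries.

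A complete separation of the arms was rare. In 57 genes (0.351%) SCDi lay above vehicle with no overlap in either strain, and in 19 (0.117%) below. Over all 15 libraries, 30 genes were higher without overlap and 9 lower. Besides those named above, and picked out after their values were seen, the 30 included the vacuolar proton pump subunits Atp6v1e1 (log2 difference 0.15) and Atp6v1f (0.17), the respiratory chain subunits Uqcrq (0.24), Cox6b1 (0.20) and Cox7b (0.18), and Sox18, an endothelial transcription factor (0.37). The 9 included the histone demethylase Kdm5c (-0.17), the anchoring protein Akap6 (-0.13) and the reelin adaptor Dab1 (-0.13).

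A log2 difference of at least 1 at an unadjusted p under 0.01 was seen in 5 of the genes tested, and 4 of them lay under 2 CPM on average. Gm43333, a transcript of the annotation's class TEC on chromosome 5 (104070064 to 104072325), led the higher side by size. Gm43333 was at 4.50, 0.403, 0.335 and 0.370 CPM in WT-D, 0.389, 45.1 and 1.28 CPM in WT-S, 0.145, 0.197, 0.0600 and 0.213 CPM in 3xTg-D, and 9.77, 8.19, 0.0739 and 18.4 CPM in 3xTg-S. It was above 5 CPM in 4 of the 7 SCDi libraries and at 4.50 CPM in 1 WT-D library, and each 3xTg-D library held 3 counts or fewer, so no fold is given. Ecrg4 (1.34), known from choroid plexus, Slc47a1 (1.62), known from meninges and kidney, and Morn5 (1.01) were higher with SCDi, and the non-coding Gm48992 was lower (-1.09). Ecrg4 was highest, at 5.42 and 3.90 CPM, in WT-S replicate 2 and 3xTg-S replicate 2, where Ttr was 306 and 206 CPM. The part of choroid plexus RNA in the Ecrg4 value was not tested.

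The target itself and its relatives showed no difference beyond the spread of replicates in the joint fit. Scd1 was at 154, 169, 148 and 160.3 CPM in WT-D, 137, 169.6 and 149.9 CPM in WT-S, 135, 130.3, 171 and 151 CPM in 3xTg-D, and 130.5, 129.5, 125 and 139 CPM in 3xTg-S. The groups overlapped in both strains, and the difference was -7.64% (95% interval -15 to 0.411%) (log2 fold change -0.11 ± 0.058, unadjusted p = 0.0611). Scd2, by far the most abundant desaturase, was at 1449, 1492, 1395 and 1471 CPM in WT-D, 1314, 1549 and 1438 CPM in WT-S, 1363, 1395, 1467 and 1449 CPM in 3xTg-D, and 1358, 1348, 1420.1 and 1413 CPM in 3xTg-S, with a difference of -1.87% (95% interval -7.18 to 3.74%). That interval is for this gene in the joint fit alone, without adjustment for the number of genes, so it does not exclude a larger change in whole tissue. Scd3 lay at 1.91 to 4.71 CPM over both arms. The fatty acid desaturases that make polyunsaturated chains were also within their spread: Fads1 differed by -0.552% (95% interval -7.28 to 6.67%) and Fads2 by 1.34% (95% interval -6.22 to 9.51%). Fads3 differed by 0.08, Fads6 by -0.07, and the ceramide desaturases Degs1 and Degs2 by 0.04 and 0.11 on the log2 scale. In 3xTg by itself, Scd1 was at -0.17 (unadjusted p = 0.0482) and Fads3 at 0.15 (unadjusted p = 0.0403), which were not called. Of 10 listed desaturation genes 9 were tested, with 0 under an unadjusted p of 0.05 in either direction and a median difference of 0.01.

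**Figure D2:**
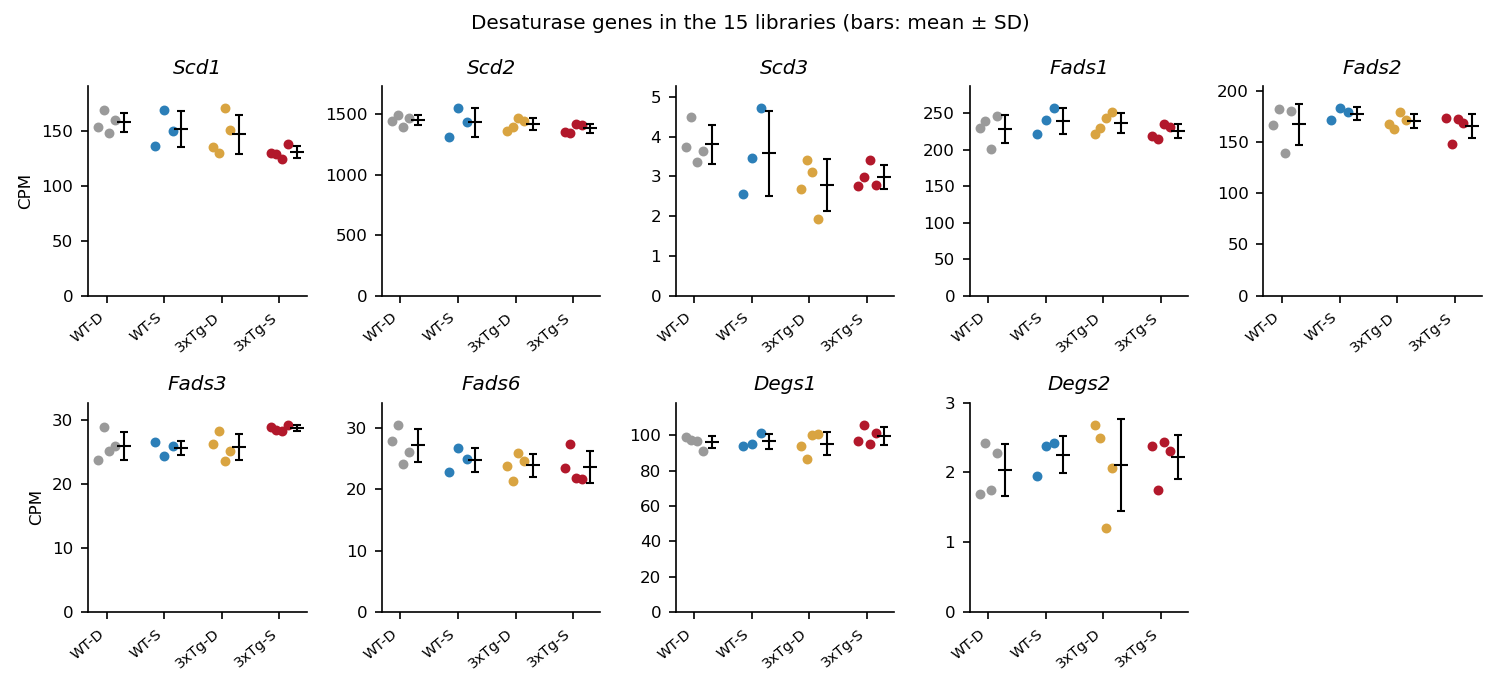
CPM of the 9 tested desaturase genes in each of the 15 libraries by group (points), with the mean and SD of each group (bars) and axes that start at 0. SCDi and vehicle libraries overlap in both strains for Scd1 and Scd2, and Scd2 is the most abundant at 1314 to 1549 CPM.

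Lipid pathways next to the target were measured by lists. Fatty acid synthesis and elongation had 3 of 20 tested genes higher and 2 lower at an unadjusted p under 0.05. Elovl6, which elongates palmitoyl chains to stearoyl chains, a substrate of SCD, was at 88.4, 75.2, 75.8 and 74.7 CPM in WT-D, 74.1, 67.0 and 68.7 CPM in WT-S, 77.8, 75.4, 86.6 and 72.8 CPM in 3xTg-D, and 72.9, 64.3, 71.1 and 71.5 CPM in 3xTg-S, a difference of -10.8% (95% interval -16.9 to -4.19%) with an unadjusted p = 0.00337 in edgeR. Thrsp, a lipogenic nuclear protein, differed by 0.17. Cholesterol synthesis had 1 of 27 higher and 0 lower: Tm7sf2, a sterol reductase, at 0.21. Sqle and Insig1 of that list differed by 0.04 and -0.07. Triglyceride and lipid droplet genes had 0 of 25 higher and 1 lower, the sterol acyltransferase Soat1 (-0.09). Plin4, a droplet coat protein, had the largest size in that list at -0.66, with an unadjusted p = 0.057 in edgeR, and rested on 3xTg-D replicate 3 at 38.3 CPM where the other 14 libraries were at 5.30 to 10.2 CPM. Fatty acid oxidation and PPAR targets had 3 of 30 higher and 0 lower, among them the carnitine palmitoyltransferase Cpt2 (0.21) and the fatty acid carrier Fabp5 (0.15). The ER stress list had 0 of 28 in either direction. These shares lie near the 6.79% in each direction over all genes, or rest on 1 to 3 genes.

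Of the 32 lists, oxidative phosphorylation and ribosomal proteins had the largest numbers of genes at an unadjusted p under 0.05. Of 93 tested nuclear-encoded genes of oxidative phosphorylation, 61 were higher and 0 lower at an unadjusted p under 0.05, beside 6.79% of all genes in each direction, and 89 had a positive difference. Their median log2 difference was 0.14, beside 0.00 over all genes. Complex I and its assembly factors had 31 of 47 genes higher, complex II had 3 of 4, complex III 5 of 9, complex IV with cytochrome c 11 of 17, and the ATP synthase 11 of 16. The list's summed level was 9909, 10104, 9945 and 9900.2 CPM in WT-D, 10212, 10255 and 10823 CPM in WT-S, 9487, 9002, 9439 and 9807 CPM in 3xTg-D, and 10159, 11474, 9938 and 10130.3 CPM in 3xTg-S. SCDi libraries were above vehicle libraries within each strain, and WT-D and 3xTg-S overlapped. Ndufb11 was at 66.3, 68.7, 63.5 and 64.4 CPM in WT-D, 76.5, 73.9 and 74.9 CPM in WT-S, 66.0, 55.1, 60.1 and 70.4 CPM in 3xTg-D, and 74.0, 84.9, 72.5 and 71.3 CPM in 3xTg-S, with no overlap over the 15 libraries. Atp5j2, a subunit of the ATP synthase, differed by 14.4% (95% interval 6.98 to 22.3%). DESeq2 called 9 of the list that rose by its test: Ndufb11, Ndufa4, Ndufa13, Ndufs4, Uqcrq, Uqcr10, Cox6b1, Atp5k and Atp5j2. Mitochondrial genome transcripts, which encode the other subunits of the same complexes, had 0 of 8 tested genes in either direction, with a median of 0.03.

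Cytosolic ribosomal proteins had 45 of 79 tested genes higher and 0 lower at an unadjusted p under 0.05, with a median of 0.15. The large subunit gave 26 of 46 and the small subunit 18 of 31. The summed level was 4646, 4482, 4275 and 4361 CPM in WT-D, 4632, 4706 and 4853 CPM in WT-S, 4352, 4000.3, 4267 and 4459 CPM in 3xTg-D, and 4685, 5489.9, 4663 and 4599 CPM in 3xTg-S. In 3xTg the arms did not overlap, and in WT one vehicle library lay above the lowest SCDi library. Rpl18 differed by 0.32 and Rpl32 by 0.20. Ribosomal protein genes have many processed copies in the genome, so uniquely mapped reads may undercount them. In both lists the highest library was 3xTg-S replicate 2. Without it, 47 of 93 oxidative phosphorylation genes and 33 of 79 ribosomal genes remained higher at an unadjusted p under 0.05, with medians of 0.09 and 0.12.

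**Figure D3:**
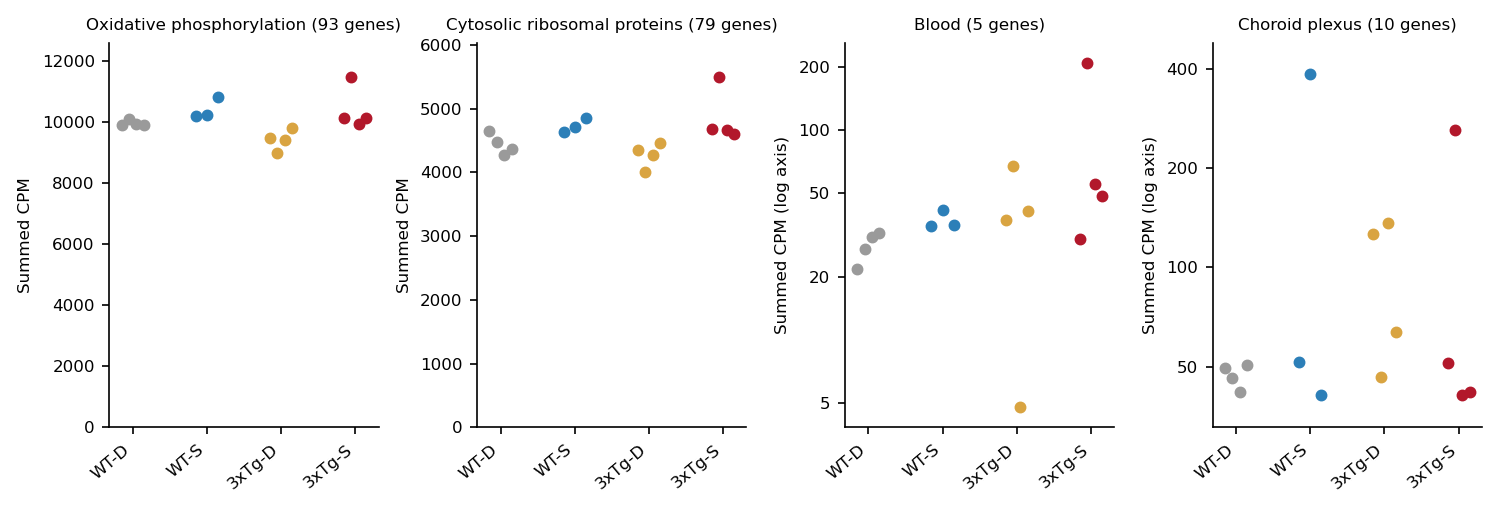
Summed CPM of the tested genes of 4 lists in each library of the 4 groups; the first 2 panels start at 0 and the last 2 have log axes. SCDi libraries lie above vehicle libraries of their strain for oxidative phosphorylation, while 3xTg-S replicate 2 is the highest for both machinery lists and for blood, and single libraries carry the choroid plexus list.

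The synaptic lists had more lower than higher genes in the joint fit, by small amounts, beside 6.79% of all genes in each direction. Glutamate receptors and postsynaptic scaffold genes had 6 of 42 lower and 0 higher at an unadjusted p under 0.05, with a median of -0.05, among them Homer2 (-0.20), the AMPA receptor subunit Gria2 (-0.14), Grm5 (-0.17), Dlg2 (-0.12), Gria3 (-0.11) and Homer1 (-0.20). GABA genes had 4 of 21 lower and 0 higher, with a median of -0.07, among them Gad2, the receptor subunit Gabrg3 (-0.21) and Gad1 (-0.10). Vesicle release genes had 5 of 34 lower and 0 higher, with a median of -0.03. The active zone scaffolds Rims1 and Rims2 differed by -0.11 and -0.11. With a trend on transcript length and GC content taken out of each library, glutamate genes had 2 of 42 higher and 0 lower (median -0.02), vesicle release genes 0 of 34 higher and 2 lower (median -0.01), and GABA genes 1 of 21 higher and 4 lower (median -0.03). Over all 16262 genes, 1141 were under that p in that fit, both directions together. With the length slope of each library as a covariate the medians were 0.00, 0.00 and -0.01. Immediate-early genes had 1 of 26 higher, Ier2 (0.36), and 1 lower, Homer1. Their median was -0.06 in WT, 0.11 in 3xTg and 0.02 in the joint fit. Without 3xTg-S replicate 2 the joint median was -0.04, with 0 higher and 3 lower. With the slope as a covariate it was -0.12. Circadian clock genes had 1 of 20 higher and 3 lower. Dbp, an output gene of the clock, differed by 0.23, and Clock, Arntl and Bhlhe40 by -0.14, -0.13 and -0.13.

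Differences were ordered by transcript length. Length is that of the longest annotated transcript of a gene, known for 99.9% of the genes tested. The median length was 1442 nucleotides for the 357 genes higher at an unadjusted p under 0.01, 6793 for the 293 lower and 3262 for all genes. With genes divided by length into 10 equal parts, the median log2 difference went from 0.11 in the shortest (153 higher, 2 lower at p under 0.01) to -0.08 in the longest (2 higher, 148 lower). In WT it went from 0.08 to -0.06 and in 3xTg from 0.15 to -0.11, falling from each part to the next in both. Across genes Spearman's rho of the difference with length was -0.42 and with GC content 0.31, as a description, since genes of one library share its preparation. The oxidative phosphorylation list, with a median length of 1129 nucleotides, stood at 0.14 beside the 0.11 of the shortest of the 10 length classes, and the ribosomal list, with 1059, at 0.15.

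The same dependence was visible in single libraries. The slope of log2 CPM on log2 length was 1.045, 1.031, 1.042 and 1.025 in WT-D, 1.021, 1.014 and 0.978 in WT-S, 1.044, 1.073, 1.071 and 1.046 in 3xTg-D, and 1.005, 0.921, 1.026 and 1.016 in 3xTg-S. All SCDi libraries lay below all vehicle libraries of their strain, by 0.0310 in WT and 0.0662 in 3xTg. The mean difference of -0.0486 had an exact permutation p of 0.000408 (two-sided, relabelling within strain, n = 15), the smallest that 2450 relabellings allow, and an adjusted p of 0.00327 over 8 measures of library make-up. The median log2 CPM of tested genes was higher by 0.0148 (adjusted p = 0.0310, exact permutation test), and the other 6 measures, among them depth, genes detected and mitochondrial share, had adjusted p-values from 0.125 to 0.675. Without 3xTg-S replicate 2, which had the lowest slope, the difference in slope was -0.0367 (exact permutation p = 0.000816). With a smooth trend on length and GC content taken out of each library, 134 genes were higher and 95 lower at an unadjusted p under 0.01, and 141 of these 229 were among the 650. In that fit 1141 of the 16262 genes tested had an unadjusted p under 0.05, both directions together. Oxidative phosphorylation had 24 of 93 genes higher at that p with a median of 0.05, and ribosomal proteins 14 of 79 with a median of 0.06. With the slope of each library as a covariate, 44 genes were higher and 18 lower at p under 0.01, where a uniform spread of p-values would give about 163. At an unadjusted p under 0.05 there were 524 of 16262 in that fit, both directions together. Oxidative phosphorylation then had 0 genes higher and 1 lower at an unadjusted p under 0.05 with a median of 0.01, and ribosomal proteins 1 higher and 0 lower with a median of 0.03. Length slope and inhibitor move together in these libraries, and the part of RNA integrity or library preparation in the result was not tested. The study's methods state that all samples passed a minimum of RNA integrity; values per sample were not analysed here.

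**Figure D4:**
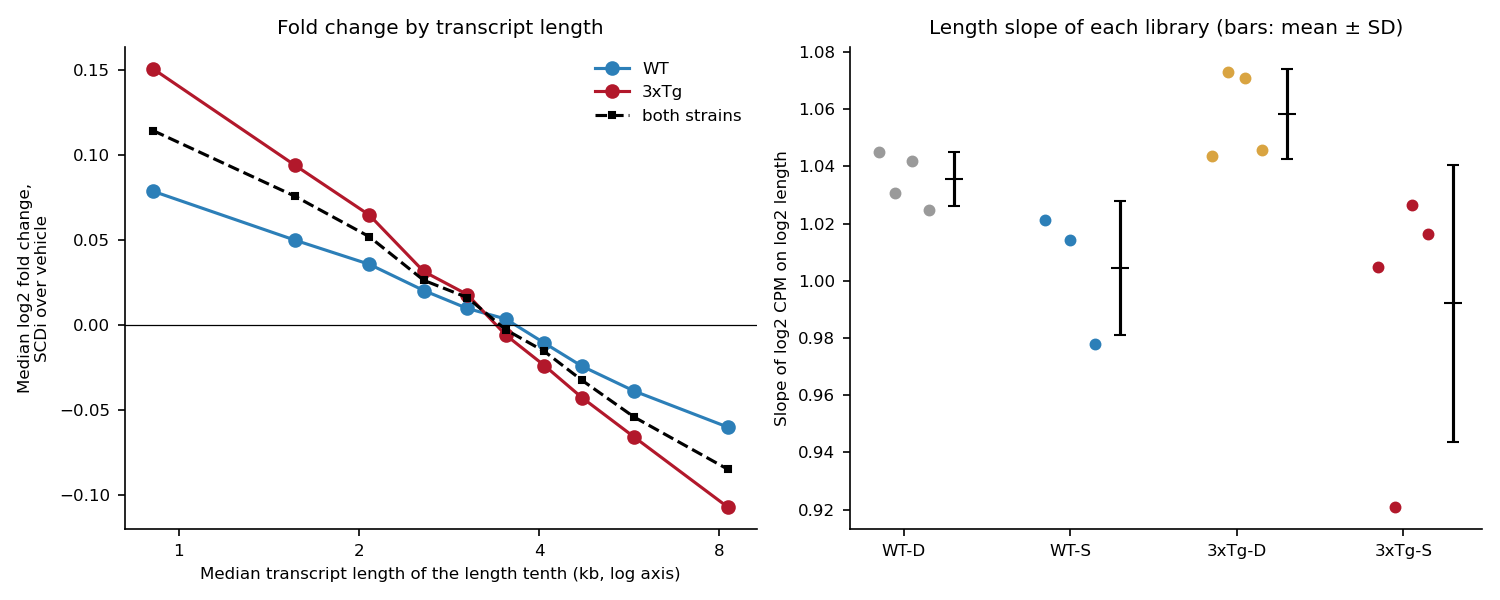
Left, median log2 fold change of SCDi over vehicle in 10 equal parts of the tested genes by transcript length, in WT, in 3xTg and in both; right, the slope of log2 CPM on log2 length in each library, with the mean and SD of each group. The medians go from positive in short genes to negative in long genes in both strains, and every SCDi library has a lower slope than the vehicle libraries of its strain.

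The values of single genes depended on which of these corrections was made. Myl6 was at 0.19 with the trend taken out and 0.11 with the slope as a covariate, and Stx8 at 0.19 and 0.14. Fxyd1, at 0.36 in the joint fit, was at 0.23 and 0.35, and Prkaa2, at -0.23, was at -0.12 and -0.20. Nedd8 was at 0.10 and 0.13, Gad2 at -0.10 and -0.10, Stk32a at -0.27 and -0.27, and Pou3f2 at -0.29 and -0.25. Atpif1, at 0.21 in the joint fit, was at 0.10 and 0.10. Eif3k, at 0.19, was at 0.11 and 0.08, and Ndufb11, at 0.23, at 0.12 and 0.11. With the slope as a covariate the unadjusted p (edgeR) was 0.0370 for Myl6, 0.0218 for Nedd8, 0.0397 for Atpif1, 0.0713 for Eif3k and 0.0655 for Ndufb11. DESeq2 was fitted with neither correction. Gria2, at -0.14 in the joint fit, was at 0.04 and -0.09. Other genes named as lower also kept less of their size. Chordc1, at -0.17 in the joint fit, was at -0.01 and -0.10, and Clock, at -0.14, was at -0.03 and -0.05. Homer1, at -0.20, was at -0.06 and -0.15, Soat1, at -0.09, at -0.01 and -0.04, and Vcan, at -0.11, at -0.01 and -0.03. Among the lower calls of DESeq2, Scn1a, at -0.27, was at -0.19 and -0.12, and Osbpl6, at -0.18, at -0.11 and -0.09. Nin, at -0.17, was at -0.09 and -0.09, and Arid5b, at -0.29, at -0.22 and -0.17. Mindy2, at -0.20, was at -0.10 and -0.19, and St8sia1, at -0.20, at -0.12 and -0.15. With the slope as a covariate the unadjusted p (edgeR) was 0.166, 0.120, 0.0964 and 0.0802 for Scn1a, Osbpl6, Nin and Arid5b. For Gad2, Prkaa2, Mindy2 and St8sia1 it was at most 0.0465. Scd1 was at -0.08 with the trend taken out (edgeR, unadjusted p = 0.141). Elovl6, at -0.16 in the joint fit, was at -0.10 with the trend taken out (edgeR, unadjusted p = 0.0217). With the slope as a covariate it was at -0.08 (edgeR, unadjusted p = 0.214).

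Each strain alone gave part of the pattern. In the fit with 4 groups, 428 genes had an unadjusted p under 0.01 for SCDi in 3xTg (286 higher) and 76 in WT (47 higher), and 0 passed correction in either by edgeR. With the libraries of 3xTg fitted alone the balance turned, to 180 higher and 211 lower, and with those of WT alone there were 43 higher and 16 lower. The 2 contrasts share no library. Of the 428, 371 (86.7%) had the same sign in WT, with a median difference of 0.25 in 3xTg and of 0.09 in WT in the 3xTg direction. Of the 76, 55 (72.4%) had the same sign in 3xTg. Over all genes 63.1% had the same sign. Spearman's rho of the difference with length was -0.26 in WT and -0.43 in 3xTg. Agreement of sign apart from length was not tested. The interaction of strain and inhibitor had 0 genes at an adjusted p under 0.05 (smallest 0.400, edgeR), 377 at an unadjusted p under 0.05 and 57 under 0.01. Rims2 was the named gene with the smallest interaction p, at 0.01 in WT and -0.21 in 3xTg (unadjusted p = 0.00801).

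Some lists had medians of opposite sign in the strains. MHC class I genes had a median difference of 0.34 in WT, -0.10 in 3xTg and 0.07 in the joint fit, and interferon response genes of 0.27, -0.20 and 0.03. The library 3xTg-D replicate 4 held the highest summed level of both lists, 374 CPM for MHC class I and 378 CPM for interferon genes, where the other 3xTg-D libraries were at 175 to 231 and 144 to 237 CPM. Without it the joint medians were 0.21 and 0.25, and with each library left out in turn the interferon median ran from -0.08 to 0.25. Over both strains these lists had 0 of 14 and 0 of 25 genes at an unadjusted p under 0.05. B2m, the light chain of MHC class I, with differences of 0.35 in WT and 0.05 in 3xTg, was at 69.1, 66.7, 66.4 and 73.4 CPM in WT-D, 93.3, 89.1 and 81.7 CPM in WT-S, 98.6, 107, 72.5 and 178 CPM in 3xTg-D, and 117, 110.1, 107 and 138 CPM in 3xTg-S. The vehicle libraries of 3xTg spread widely, and in WT the SCDi libraries lay above the vehicle libraries. Myelin genes had a median of -0.07 in WT, 0.25 in 3xTg and 0.12 in the joint fit, with 3 of 16 higher at an unadjusted p under 0.05 in the joint fit. Mag, a myelin adhesion molecule, was at 124, 127, 108 and 107 CPM in WT-D, 103, 127 and 136 CPM in WT-S, 127, 112, 81.2 and 126 CPM in 3xTg-D, and 137, 153, 137 and 134 CPM in 3xTg-S. The SCDi libraries of 3xTg were all above its vehicle libraries, and those of WT overlapped. The difference between the strains had an unadjusted p of 0.134 for Mag and was not called.

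Lists of other cell types had few genes at an unadjusted p under 0.05, most of them higher, beside 6.79% of all genes in each direction, and most of these counts rest on 2 genes. Activated microglia genes had 5 of 20 higher and 1 lower, with a median of 0.14, among them the lysosomal Cd63 (0.18), Ctsd (0.15) and Cd68 (0.29), which other cells also express. Cd68 was at 5.14, 6.32, 5.36 and 6.30 CPM in WT-D, 6.92, 6.50 and 6.92 CPM in WT-S, 6.66, 5.13, 5.88 and 4.89 CPM in 3xTg-D, and 5.80, 6.50, 8.65 and 7.68 CPM in 3xTg-S. Homeostatic microglia genes had 2 of 19 higher, C1qa (0.21) and C1qb (0.16), with a median of 0.09. With each library left out in turn, that median ran from 0.0009 without 3xTg-D replicate 3 to 0.17 without 3xTg-D replicate 4. The list's summed level was 511 CPM in 3xTg-D replicate 3 and 631 to 774 CPM in the other 3xTg-D libraries. With the length and GC trend taken out, C1qa was at 0.09 and C1qb at 0.04. In that fit the homeostatic list had 0 higher (median 0.04) and the activated list 2 higher and 1 lower (median 0.09). With the length slope as a covariate, the homeostatic list had 2 higher (median 0.12) and the activated list 6 higher (median 0.17). Over all 16262 genes, 1141 were under that p with the trend taken out and 524 with the slope as a covariate, both directions together. In the astrocyte list Vim (0.33) and S100b (0.25) were higher and 1 of 12 was lower, with a median of -0.02. Endothelial genes had 2 of 12 higher, Bsg (0.18) and Itm2a (0.26). Pericyte and smooth muscle genes had 2 of 8, Kcnj8 (0.51) and Vtn (0.30), and ependymal genes 2 of 11, Rarres2 (0.34) and Cfap126 (0.55). With the trend taken out the endothelial, pericyte and ependymal lists had 3, 1 and 2 genes higher, and with the slope as a covariate 0 each. Kcnj8, the pericyte potassium channel, was at 2.10, 1.95, 1.61 and 2.78 CPM in WT-D, 2.10, 2.75 and 2.92 CPM in WT-S, 1.30, 2.04, 2.10 and 1.91 CPM in 3xTg-D, and 3.36, 2.92, 2.81 and 2.85 CPM in 3xTg-S.

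Markers of blood and of tissue next to the hippocampus stood higher with SCDi on average and unevenly among libraries. Blood genes had 4 of 6 higher and 0 lower at an unadjusted p under 0.05, with a median of 0.91. The summed level of the 5 that neurons are not known for was 21.7, 27.2, 31.0 and 32.4 CPM in WT-D, 34.998, 41.6 and 35.3 CPM in WT-S, 37.4, 67.5, 4.80 and 40.9 CPM in 3xTg-D, and 30.1, 208, 55.3 and 48.6 CPM in 3xTg-S. Its highest value was in 3xTg-S replicate 2 and its lowest in 3xTg-D replicate 3. Without the former, 1 of 6 stayed under 0.05 and the median was 0.32. The near-identical Hba-a1 and Hba-a2 cannot be told apart by reads they share. Choroid plexus genes had 1 of 10 higher, Cldn2 (0.95), with a median of 1.65 in WT and 0.05 in 3xTg and a summed level of 49.6, 46.1, 41.9 and 50.6 CPM in WT-D, 51.7, 384 and 41.1 CPM in WT-S, 126, 46.6, 136 and 63.8 CPM in 3xTg-D, and 51.4, 259.9, 40.9 and 42.0 CPM in 3xTg-S. Meningeal genes had 1 of 12 higher, Igfbp2 (0.35), with a median of 0.53 and all 12 positive. The part of these tissues in other differences was not tested.

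**Figure D5:**
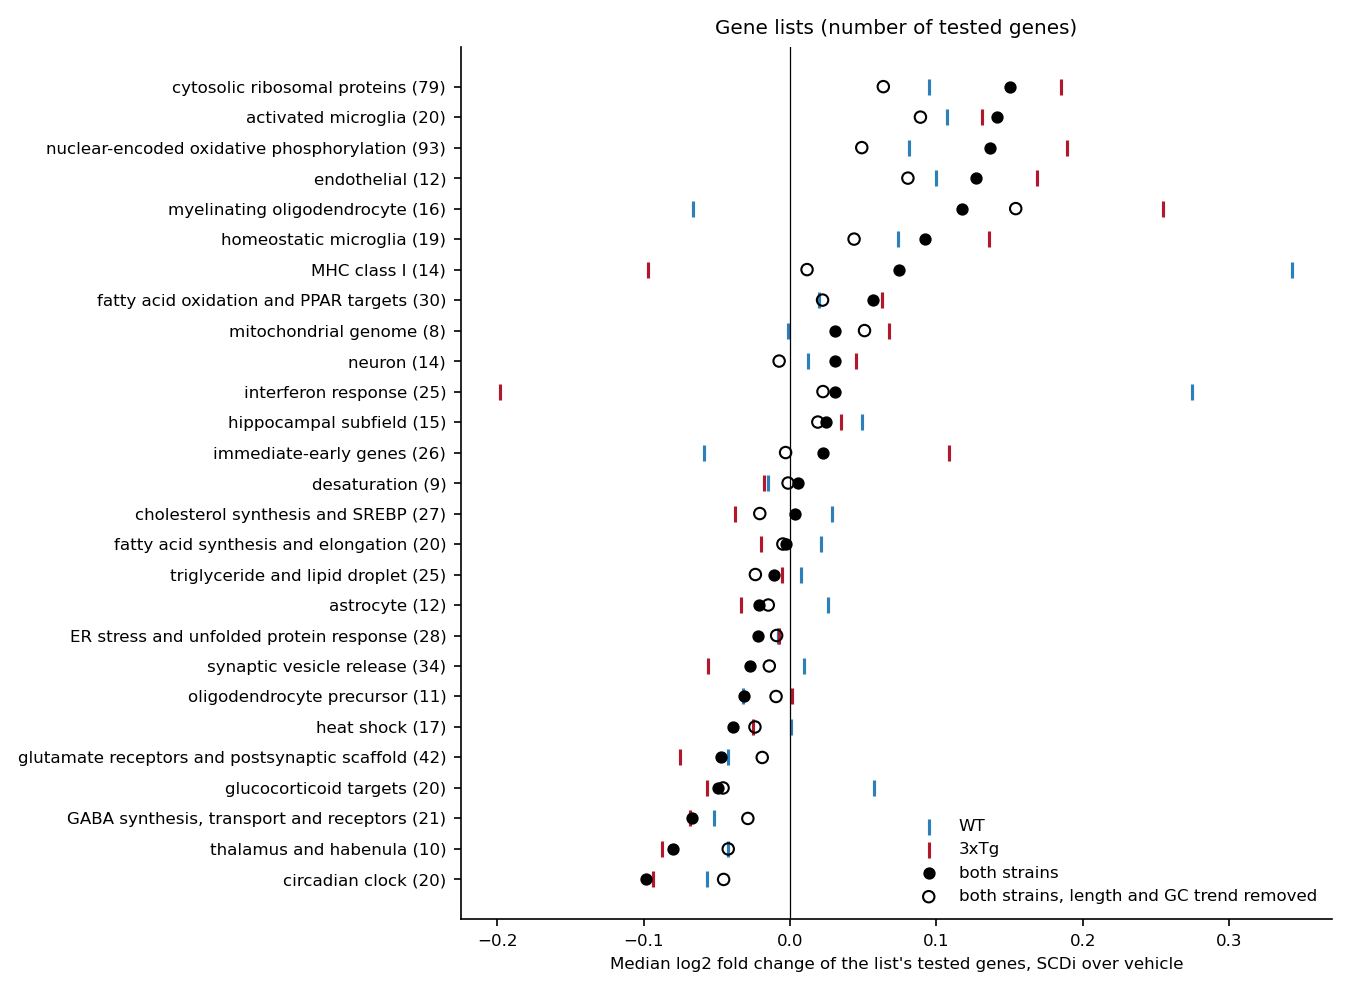
Median log2 fold change of SCDi over vehicle for 27 lists (tested genes in parentheses), in the joint fit of both strains (filled circles), with the length and GC trend of each library taken out (open circles), and in WT and 3xTg (bars); blood, choroid plexus, meninges, ependyma and pericyte lists are left out for scale. Oxidative phosphorylation and ribosomal proteins are among the highest and move toward 0 without the trend, and MHC class I and interferon genes have opposite signs in the strains.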

How the data were processed

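Hippocampal RNA from 15 mice of 10 months was measured by the study with an mRNA library kit, adapters with molecular identifiers and single-end reads. The deposited values are raw counts per gene; per the submitters' processing notes and the study's methods, the authors trimmed reads with Trimmomatic 0.35, aligned them with STAR 2.5.1b to GRCm38 and counted uniquely mapped reads on a Gencode annotation. The strand setting and whether identifiers were used to collapse reads are not given in the sources used here. Lines that name no gene (24.7% to 27.5% of reads) were left out. The 15 libraries held 12992547 to 17575615 gene counts, and intervals cover the fitted spread between libraries.

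Genes were kept by filterByExpr on the 4 groups, scaled with TMM factors and fitted in edgeR 4.0.16 (R 4.3.3, glmQLFit and glmQLFTest) with strain and treatment as terms and no interaction; calls needed a p under 0.05 after Benjamini-Hochberg adjustment. A second fit with 4 groups gave each strain's contrast and the interaction. All adjusted p-values of genes come from these fits unless DESeq2 1.42.0 is named. DESeq2 left 10089 genes without an adjusted p. Log2 fold changes are followed by their standard error. Library measures were compared by two-sided exact permutation within strain. Transcript length and GC content are of the longest transcript in Gencode M21, the annotation at hand, which may be an unspliced form. Sequences were not needed for these comparisons and none are shown.

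Named genes were 12 in each direction (smallest p at a mean of at least 1 CPM where none was called), all tested desaturation genes, and the 2 smallest p-values of each of the other 31 lists; others are marked as picked after their values were seen or appear as list members. The members, lists and tests were chosen with earlier results of these data known. Alternatives were DESeq2 size factors, no filter, the DESeq2 likelihood ratio test, limma 3.58.1 voom with library weights, the mean of the strain contrasts, each strain alone, a block for runs of animal numbers, each library left out, the length slope as a covariate, and a spline trend (5 degrees of freedom each) on length and GC taken out as an offset; leaving out the lowest-slope library of both SCDi groups was added after seeing the data. Some list members are counted but not reported here by name.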

Additional observations from a re-analysis of the deposited data

Results flagged for a closer look

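In 300 sets of 4 libraries (276 of a named gene in a group and 24 of a library measure), 17 had a library set apart from the other 3 by a gap above Dixon's critical share of the range; chance alone sets apart about 1 in 20. No cause was tested for any of them.

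The library 3xTg-S replicate 2 was set apart in 6 sets. It was above its group for Rpl32 (148 CPM, others 127 to 130.4), S100b (164 CPM, others 133 to 136), Hba-a1 (14.2 CPM, others 2.26 to 4.14), Hspe1 (52.1 CPM, others 42.8 to 43.2) and Mag (153 CPM, others 134 to 137), and below it for Nin (56.1 CPM, others 65.3 to 66.6).

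In 3xTg-D, replicate 3 was set apart for Plin4 (38.3 CPM, others 6.38 to 9.01) and Itm2a (21.9 CPM, others 39.0 to 42.2). Replicate 1 was set apart for Nedd8 (59.3 CPM, others 52.4 to 53.5), Rpl18 (15.1 CPM, others 12.8 to 13.05) and the slope of log2 CPM on GC percent (-0.0237, others -0.0214 to -0.0210). Among the other 3xTg-S libraries, replicate 4 was set apart for Gad2 (191 CPM, others 175 to 177).

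In WT-D, replicate 1 was above its group for Gm43333 (4.50 CPM, others 0.335 to 0.403) and Elovl6 (88.4 CPM, others 74.7 to 75.8). The other sets of WT-D were Osbpl6 in replicate 3 (119 CPM, others 106 to 106), Hba-a1 in replicate 4 (2.16 CPM, others 1.27 to 1.41) and Cfap126 in replicate 2 (1.88 CPM, others 1.14 to 1.23).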

How the results depend on the processing

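The count of called genes was 0 in edgeR under each alternative that kept the filter and all libraries, and also 0 in voom and in each strain alone. It was 94 with no filter on low counts, of which 5 genes were untested before, 55 with the DESeq2 likelihood ratio test, and 0 to 1 with a library left out, the 1 being Myl6 without WT-S replicate 1. At an unadjusted p under 0.01, as the study's threshold, it was 650. The 357 higher genes at that p became 134 with the length and GC trend removed, 44 with the length slope as a covariate, 43 in WT and 180 in 3xTg alone, 169 without the lowest-slope library of each SCDi group, and 231 to 419 with a library left out. The 293 lower genes became 95 with the trend removed, 18 with the slope as a covariate, 16 in WT and 211 in 3xTg alone, 78 without those lowest-slope libraries, 147 to 484 with a library left out, and 646 with no filter. Leaving out WT-D replicates 1 or 4, 3xTg-D replicate 2, WT-S replicate 3 or 3xTg-S replicates 1 or 2 moved a count by over 1.5 times, to 170, 484, 167, 147, 194 and 168 lower genes, and without 3xTg-D replicate 2 or 3xTg-S replicate 2 to 231 and 233 higher. The medians of oxidative phosphorylation and ribosomal lists moved to 0.05 and 0.06 with the trend removed and to 0.01 and 0.03 with the slope as a covariate. The causes were not tested.

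With a replicate block by runs of 4 animal numbers, 307 genes were higher and 283 lower at p under 0.01, and 0 were called; same-run libraries correlated over 0.1 in 3 of 21 pairs (-0.218 to 0.190), so the numbers were not taken to pair samples.

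Among named genes, 29 of the values under an alternative had the opposite sign. With the trend removed these were Gria2 (0.0359), Scd2 (0.00467), Fads2 (-0.0173) and Scd3 (-0.00133), and with the slope as a covariate Ifit2 (0.00834), Degs1 (-0.0305), Fads1 (0.0156) and Scd3 (-0.0557). In WT alone they were Rims2 (0.0146), Fads3 (-0.0132), Fads1 (0.0682) and Scd3 (-0.0817), and in 3xTg alone Fads2 (-0.0408). Scd3 was also at -0.000949 with no filter, -0.0291 in voom and -0.0987 without the lowest-slope libraries. With a library left out, Fads2 ran from -0.0182 to 0.0480, Fads1 from -0.0376 to 0.0124 and Scd3 from -0.0812 to 0.0933. Depth limits genes of few reads such as Scd3.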

Other observations

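The lists that follow were not described above, and their counts stand beside 6.79% of all genes in each direction at an unadjusted p under 0.05. Neuron markers had 1 of 14 genes higher and 3 lower at an unadjusted p under 0.05, with a median log2 difference of 0.03. The higher one was Stmn2, a regulator of axonal microtubules, at 0.12, and the lower ones were Gad2 at -0.16, the dendritic Map2 at -0.13 and Gad1 at -0.10. Hippocampal subfield genes had 2 of 15 higher, Bok at 0.24 and C1ql2, a dentate gyrus synaptic organiser, at 0.21. Heat shock genes had 1 of 17 higher, the mitochondrial chaperonin Hspe1 at 0.14, and 1 lower, Chordc1 at -0.17. Glucocorticoid-related genes had 2 of 20 higher and 1 lower, with Hsd11b1, which regenerates corticosterone, at 0.19 and the receptor Nr3c1 at -0.12. Oligodendrocyte precursor genes had 1 of 11 higher, Olig1 at 0.20, and 1 lower, the proteoglycan Vcan at -0.11. Markers of thalamus and habenula had 0 of 10 in either direction, with a median of -0.08.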
